A study of Caenorhabditis elegans with 2 samples.

Results

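EGL-5 peaks were examined at 10 intracellular genes of the Wnt pathway among the 19973 protein-coding genes of Caenorhabditis elegans: the Dishevelled genes mig-5, dsh-1 and dsh-2, the beta-catenin genes bar-1, wrm-1, hmp-2 and sys-1, the TCF gene pop-1, the Nemo-like kinase gene lit-1 and the APC-related gene apr-1. The genes were listed by name from known pathway roles, at a time when earlier results of these data were known. A peak was counted at a gene when its summit lay in the gene body or in the intergenic sequence up to the neighbouring protein-coding gene on either side, a stretch called the territory. By chromatin immunoprecipitation and sequencing (ChIP-seq), 2 biological replicates of 1 group were profiled. The animals were whole larvae at the third larval stage (L3), with the sexes pooled and the exact age unknown. Their strain, OP54, carries the unc-119(ed3) mutation on chromosome III and wgIs54, an insertion with egl-5 as its target that supplies eGFP-tagged EGL-5. Both replicates share this genotype, and the number of inserted copies and the cells that make the tagged protein are not given in the labels. The labels point to a separate control experiment, which was not used here, so no group stood against the tagged one.

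The authors deposited 1 peak list per replicate (30000 rows each), a list from the pooled replicates (28619 rows) and the 2570 peaks kept after thresholding on the irreproducible discovery rate (IDR), which weighs how well peak ranks match between replicates. The IDR peaks were exactly the 2570 highest-scoring rows of the pooled list, with scores of 30.8 to 510 and a median of 40.97. Scores are on the authors' own scale and are compared only within a list. The replicate and pooled lists are labelled as peaks and background together, so their rows below the IDR peaks are called listed regions here and are not taken as binding. No read counts come with the lists, so the depth behind a score is unknown. All 5 of the highest IDR peaks lay within 20 kb of egl-5, whose tagged copies and native copy are not separated in these lists.

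Wnt proteins bind Frizzled receptors at the cell surface, and Dishevelled proteins pass the signal on inside the cell. In the canonical branch the beta-catenin BAR-1 escapes a destruction complex that includes the APC-related protein APR-1, and acts with POP-1, the TCF transcription factor of the worm. In the asymmetry branch, used in many divisions of the worm, WRM-1 and the kinase LIT-1 lower nuclear POP-1 while SYS-1 acts as its coactivator, and the remaining beta-catenin, HMP-2, works mainly in adherens junctions. EGL-5 is a posterior Hox protein, and Wnt signalling acts with it in patterning the tail region of the worm.

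Of the 10 genes, 4 had an IDR peak in their territory (mig-5, dsh-1, sys-1 and lit-1), and they held 8 IDR peaks in all. The sequence around the 6 summits at mig-5, dsh-1 and lit-1 is given here because it is the DNA on which the peaks centre. Each run holds the summit and 100 bases on either side from the ce11 (WBcel235) assembly of RefSeq, printed 5′ to 3′ on the plus strand. The mig-5 run comes from the sequence just upstream of the gene (chrII:8185077-8185277). Those of dsh-1 come from its intron 5 (chrII:5220761-5220961 and chrII:5222988-5223188) and from the sequence upstream of the gene (chrII:5226441-5226641). Those of lit-1 come from its introns 5 and 6 (chrIII:13717580-13717780 and chrIII:13718615-13718815). Both mig-5 and dsh-1 are read from the minus strand and lit-1 from the plus strand. Capitals mark matches, on either strand, to the motifs found there: the GA repeat GAGAGA, the E-box CAGCTG and the Hox core TTTATG.
mig-5 upstream: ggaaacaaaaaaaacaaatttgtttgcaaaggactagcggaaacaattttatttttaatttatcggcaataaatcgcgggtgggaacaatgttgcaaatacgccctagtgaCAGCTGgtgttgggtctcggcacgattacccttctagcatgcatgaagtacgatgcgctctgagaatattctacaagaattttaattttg
dsh-1 intron, inner: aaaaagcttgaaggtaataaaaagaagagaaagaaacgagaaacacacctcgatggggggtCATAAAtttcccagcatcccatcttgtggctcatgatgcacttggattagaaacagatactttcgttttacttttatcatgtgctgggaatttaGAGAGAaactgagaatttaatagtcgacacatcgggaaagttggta
dsh-1 intron, outer: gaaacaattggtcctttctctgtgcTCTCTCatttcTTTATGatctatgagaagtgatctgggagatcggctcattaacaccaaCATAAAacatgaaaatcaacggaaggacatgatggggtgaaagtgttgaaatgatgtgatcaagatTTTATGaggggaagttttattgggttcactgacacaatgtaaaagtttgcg
dsh-1 upstream: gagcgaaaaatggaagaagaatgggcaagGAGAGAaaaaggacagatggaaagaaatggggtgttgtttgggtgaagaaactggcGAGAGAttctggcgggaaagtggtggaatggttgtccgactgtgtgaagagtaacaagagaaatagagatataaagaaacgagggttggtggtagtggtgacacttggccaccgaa
lit-1 intron, first: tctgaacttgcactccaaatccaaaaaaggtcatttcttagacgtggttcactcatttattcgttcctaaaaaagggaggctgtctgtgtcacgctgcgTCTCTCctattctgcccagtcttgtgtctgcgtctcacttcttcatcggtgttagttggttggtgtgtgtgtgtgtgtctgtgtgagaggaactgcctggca
lit-1 intron, second: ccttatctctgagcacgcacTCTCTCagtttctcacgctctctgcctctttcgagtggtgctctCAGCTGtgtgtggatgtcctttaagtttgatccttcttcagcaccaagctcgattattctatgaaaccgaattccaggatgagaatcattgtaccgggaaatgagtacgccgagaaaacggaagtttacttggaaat

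Within 50 bp of each summit, 6 motifs were searched on both strands: the GA repeat GAGAGA, the E-box CAGCTG, the cores TTTATG and TTTACG bound by posterior Hox proteins in other animals, the joined Hox and PBC core TGATTTAT, and the TCF core CTTTGAT. The palindrome CAGCTG lay at 3 of the 8 IDR summits of the pathway genes, beside 4.75% of all IDR summits, 2.56% of the other pooled summits and 1.93% of genome windows of 101 bp. At the other 59 pooled summits of these genes it lay at 1 (1.69%). Its 3 matches at IDR summits were 11 bp to the right of the mig-5 summit, 4 bp to the right of the sys-1 summit upstream of the gene and 36 bp to the left of the second lit-1 summit (distances to the first base of the match, on the plus strand). GAGAGA lay at 2 of the 8 summits, beside 26.8% of all IDR summits and 5.18% of genome windows. It covered the first lit-1 summit itself and began 15 bp to the left of the upstream dsh-1 summit. Within 100 bp, the stretch printed, GAGAGA lay at 5 of the 8 summits, beside 42.1% of all IDR summits. In that stretch CAGCTG lay at 3 of the 8, beside 7.74%, and TTTATG at 2 of the 8, beside 20%. Within 50 bp, TTTATG lay at 2 of the 8, both in intron 5 of dsh-1, beside 11.3% of all IDR summits and 8.87% of genome windows. TTTACG, TGATTTAT and CTTTGAT were at 0 of the 8 summits, beside 5.99%, 1.17% and 0.934% of all IDR summits. No motif overlapped another in the printed runs. The median GC content within 50 bp was 45.0% at the 8 summits, 45.5% at all IDR summits and 34.7% in genome windows. With 8 summits, 2 of them at sys-1 and not printed, these shares are a description only.

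The 3 Dishevelled genes differed in what was listed at them. At mig-5 (WBGene00003241, chrII:8182323-8185023, minus strand), a Dishevelled gene with roles in asymmetric division and neuroblast migration, the score of the single IDR peak was 33.3 in replicate 1 and 69.1 in replicate 2, and 100.9 in the pooled list. These placed it 175th, 37th and 61st by score in the 3 lists, the highest position of any of the 10 genes in each. The peak (chrII:8184995-8185358) lay between genes, with its summit 154 bp upstream of the mig-5 start and 266 bp upstream of the start of cct-1, a chaperonin subunit gene on the other strand. It stood in the promoter windows of both genes (1000 bp upstream to 200 bp downstream of an annotated transcript start), and which of them it serves cannot be told from its place. No other pooled row fell in the mig-5 territory of 3.12 kb.

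At dsh-1 (WBGene00001101, chrII:5214400-5225384, minus strand), a Dishevelled gene with 7 annotated transcript starts, 3 IDR peaks were listed. The innermost (chrII:5220679-5221042) scored 27.3 in replicate 1 and 39.6 in replicate 2, and 69.6 in the pooled list. Its summit was in intron 5 of 12 of the longest transcript, 150 bp upstream of an internal start. The next (chrII:5222906-5223269) scored 27.8 in replicate 1 and 37.2 in replicate 2, and 64.8 in the pooled list. It was in the same intron, 508 bp downstream of another internal start and so outside the promoter window. The pair were alike in rank, at 356th and 337th in replicate 1 and 333rd and 415th in replicate 2, with summits 2227 bp apart. The outermost (chrII:5226359-5226722) scored 9.71 in replicate 1 and 23.2 in replicate 2, and 34.5 in the pooled list, with its summit 1157 bp upstream of the outermost start. It was low in replicate 1, at rank 4244, and stood higher in replicate 2, at rank 1735. At the outermost starts themselves, 1 region was listed, 104 bp upstream, with a score of 7.59 in the pooled list and 9.05 in replicate 2, and none in replicate 1. The other pooled rows at dsh-1 brought its total to 11, with scores of the remainder up to 18.8.

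At dsh-2 (WBGene00001102, chrII:5078233-5081174, minus strand), the Dishevelled gene needed for asymmetric division of the somatic gonad precursors, there was no IDR peak. Its highest pooled row (chrII:5081194-5081557), 202 bp upstream of the start, scored 16.0, or 51.9% of the lowest IDR score. The overlapping rows scored 10.7 in replicate 1 and 11.9 in replicate 2, but the summit of the replicate 2 row was 304 bp away and outside the dsh-2 territory, and the highest score inside it was 5.73 in that replicate. The nearest IDR summit to the dsh-2 start was 11.394 kb upstream, in the promoter windows of C04G6.2 and pld-1.

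**Figure D1:**
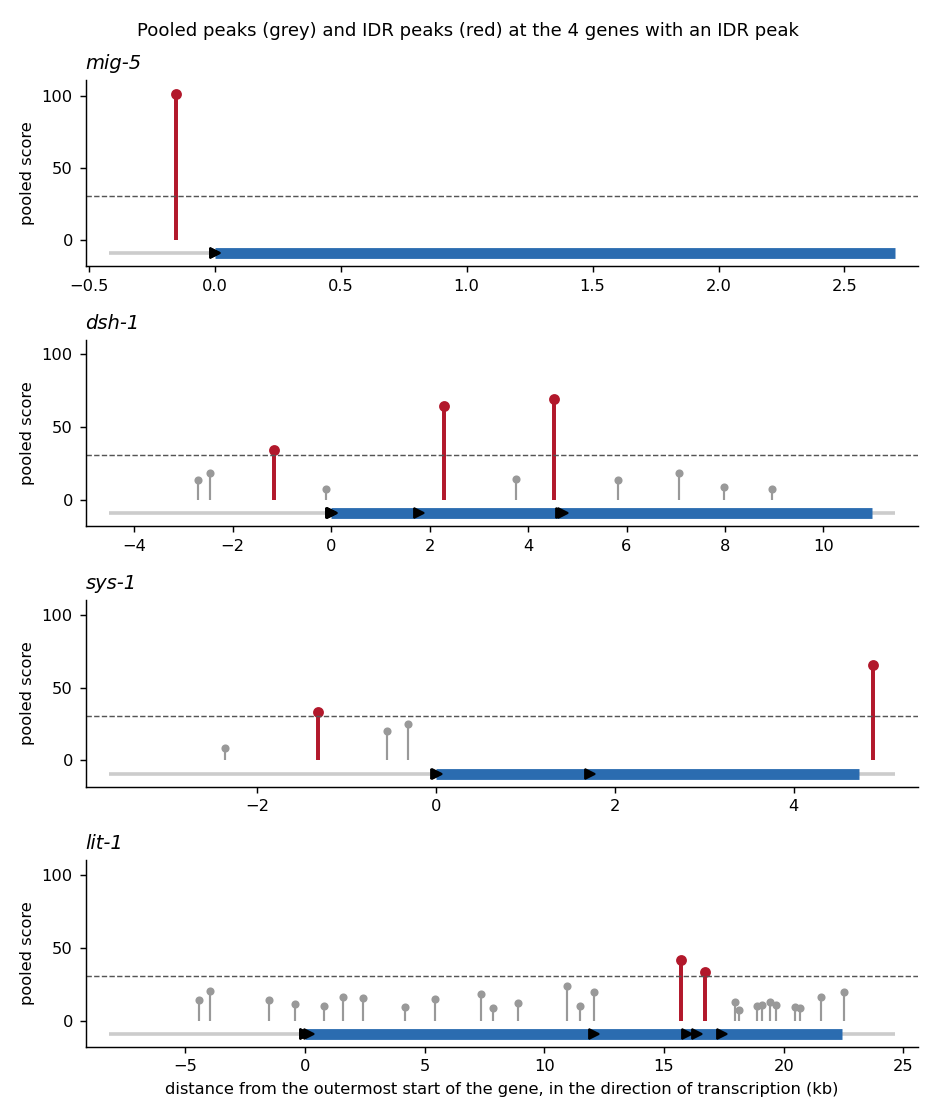
Pooled peaks at mig-5, dsh-1, sys-1 and lit-1, with the summit's distance from the outermost start of the gene on the x axis (kb, positive in the direction of transcription) and the pooled score on the authors' scale on the y axis. Red stems are IDR peaks and grey stems the other pooled rows; the blue bar is the gene body, the grey line the flanking sequence, the arrowheads the annotated starts and the dashed line the lowest IDR score (30.8). The mig-5 peak stood alone 154 bp from the start, while the IDR peaks of lit-1 and the higher pair of dsh-1 lay inside the gene.

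Among the 4 beta-catenin genes, sys-1 was alone in having IDR peaks. It encodes the diverged beta-catenin that binds POP-1 as a coactivator (WBGene00006379, chrI:9980063-9984794, minus strand). The higher of its 2 peaks (chrI:9979730-9980093) scored 33.0 in replicate 1 and 32.6 in replicate 2, and 65.5 in the pooled list, and stood at ranks 182 and 688 of the replicate lists. It lay past the 3′ end of sys-1 and 250 bp upstream of the start of the neighbouring gene eif-3.C, a translation initiation factor subunit, in whose promoter window it stood. The lower (chrI:9985928-9986291) scored 9.93 in replicate 1 and 22.0 in replicate 2, and 33.1 in the pooled list, 1316 bp upstream of the sys-1 start in the sequence shared with his-67, a histone gene. Its rank was 4061 in replicate 1 and 1961 in replicate 2. Closer to the start, 2 pooled rows that missed the IDR list, at 314 and 546 bp upstream, scored 25.2 and 19.9. Both overlapped the same row in each replicate, which scored 19.4 in replicate 1 (rank 993) and 12.8 in replicate 2 (rank 5815). So the sys-1 promoter window held no IDR peak, and the region there was among the 2570 highest rows in replicate 1 only.

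The canonical beta-catenin gene bar-1 (WBGene00000238, chrX:7166005-7170625, minus strand) had 7 pooled rows and no IDR peak. The highest (chrX:7174092-7174455) scored 14.2 in replicate 1 and 8.78 in replicate 2, and 24.1 in the pooled list, 3649 bp upstream of the start. It ranked 2040th in replicate 1, within as many rows as the IDR list holds, and 10644th in replicate 2. A row 6404 bp upstream, in the promoter window of the neighbour F43E12.1, scored 7.61 in replicate 1 and 13.6 in replicate 2, and 22.9 in the pooled list. The row in bar-1's own promoter window, 216 bp upstream, scored 9.13 in replicate 1 and 8.15 in replicate 2, and 16.7 in the pooled list, and a row in exon 3 scored 21.7 in the pooled list.

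At wrm-1 (WBGene00006943, chrIII:5722850-5727115, plus strand), the beta-catenin that acts with LIT-1 on POP-1, 2 pooled rows were listed. The higher (chrIII:5721868-5722231) scored 6.47 in replicate 1 and 18.4 in replicate 2, and 22.7 in the pooled list, 800 bp upstream of the start. It ranked 7848th in replicate 1 and 2882nd in replicate 2, a wide gap between the replicates. The nearest IDR summit was 16.413 kb upstream, in the promoter windows of rpl-23 and swp-1.

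At hmp-2 (WBGene00001979, chrI:14738882-14742671, plus strand), the junctional beta-catenin, the only pooled row was in exon 4. It scored 3.70 in replicate 1 and 6.76 in the pooled list and had no row in replicate 2. Both scores were below the medians of their lists, 4.28 and 10.5. An IDR peak with a score of 38.0 lay 1.357 kb upstream of the hmp-2 start and beyond the neighbouring gene K05C4.7, in whose promoter window it stood, and was therefore not counted at hmp-2.

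The TCF gene pop-1 (WBGene00004077, chrI:2822243-2830311, minus strand) had 10 pooled rows in a territory of 23.724 kb and no IDR peak. Its highest row (chrI:2831289-2831652) scored 10.2 in replicate 1 and 11.0 in replicate 2, and 25.9 in the pooled list, 84.2% of the lowest IDR score, with the summit 1160 bp upstream of the start. It was the highest pooled row among the 6 genes without an IDR peak, but with flanks that stop at a gene of any biotype the highest score at pop-1 was 11.3, below those of wrm-1, bar-1, dsh-2 and apr-1. In the pop-1 promoter window, 2 adjacent rows scored 16.7 and 9.12 in the pooled list and overlapped the same replicate rows, at rank 16114 in replicate 1 and at rank 3865, with a score of 15.9, in replicate 2. The nearest IDR summit to the pop-1 start was 33.943 kb away.

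The kinase gene lit-1 (WBGene00003048, chrIII:13701991-13724404, plus strand), which acts with WRM-1 to phosphorylate POP-1, had 2 IDR peaks and 27 pooled rows, the most of the 10 genes. The higher IDR peak (chrIII:13717498-13717861) scored 15.2 in replicate 1 and 26.3 in replicate 2, and 41.7 in the pooled list. Its summit was in intron 5 of 10, 285 bp upstream of an internal start. The lower (chrIII:13718533-13718896), 1035 bp further on in intron 6, scored 18.5 in replicate 1 and 20.4 in replicate 2, and 33.1 in the pooled list. It lay 356 bp downstream of an internal start and 681 bp upstream of the next, in the promoter window of the next. Replicate 1 gave the lower peak the higher score and replicate 2 the other, so their order was not settled by the replicates. The peaks were 15689 and 16724 bp downstream of the outermost start, where the row at 419 bp upstream scored 9.78 in replicate 2 and 11.5 in the pooled list, with none in replicate 1. Of the other rows at lit-1, 11 were in the long second intron, with scores up to 24.0.

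At apr-1 (WBGene00000156, chrI:8050037-8055475, plus strand), the APC-related gene, the only pooled row (chrI:8049438-8049801) scored 5.26 in replicate 1 and 6.38 in replicate 2, and 12.6 in the pooled list. It was 417 bp upstream of the apr-1 start, in a promoter window shared with K04G2.7. The nearest IDR summit was 25.319 kb away.

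**Figure D2:**
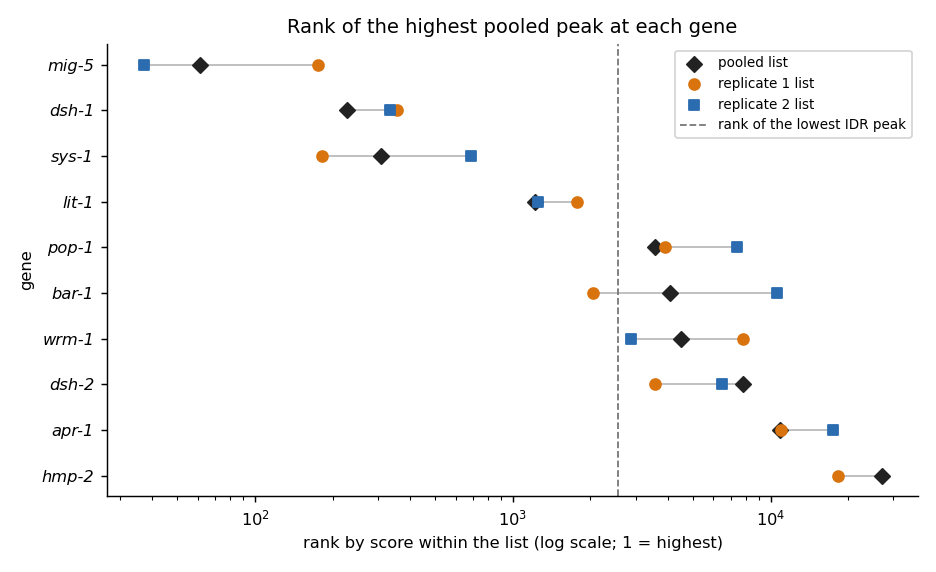
Rank by score of each gene's highest pooled row in the pooled list (diamonds) and of the overlapping row in the lists of replicate 1 (circles) and replicate 2 (squares), on a log x axis where 1 is the highest score, with the 10 genes on the y axis in order of pooled score. The dashed line is the rank of the lowest IDR peak (2570). All 3 ranks of mig-5, dsh-1, sys-1 and lit-1 are left of the line, and hmp-2 has no replicate 2 row. The pooled list was derived from both replicates, so its ranks are not independent of theirs.

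By highest pooled score the order was mig-5, dsh-1, sys-1, lit-1, pop-1, bar-1, wrm-1, dsh-2, apr-1 and hmp-2. The IDR peaks are the highest pooled rows, so genes with an IDR peak lead this order by construction. The pooled list was derived from both replicates, so the replicate orders are not independent of it. In each replicate the 4 genes with IDR peaks came first, with mig-5 highest and lit-1 the lowest of the 4. Between them, sys-1 stood above dsh-1 in replicate 1 (33.0 against 27.8) and below it in replicate 2 (32.6 against 39.6), so these neighbours were not set apart. The place of sys-1 rests on the peak in the eif-3.C promoter window; its other IDR peak, upstream of sys-1, scored 33.1, below the 41.7 of lit-1. With flanks to a gene of any biotype, pop-1 came after apr-1, and bar-1 (21.7) after wrm-1 (22.7). Below the 4 genes with IDR peaks the replicates changed the order: bar-1 and dsh-2 led this group in replicate 1, and wrm-1 and pop-1 in replicate 2. The pooled scores of these 6 genes' highest rows ran from 6.76 to 25.9, under the lowest IDR score.

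**Figure D3:**
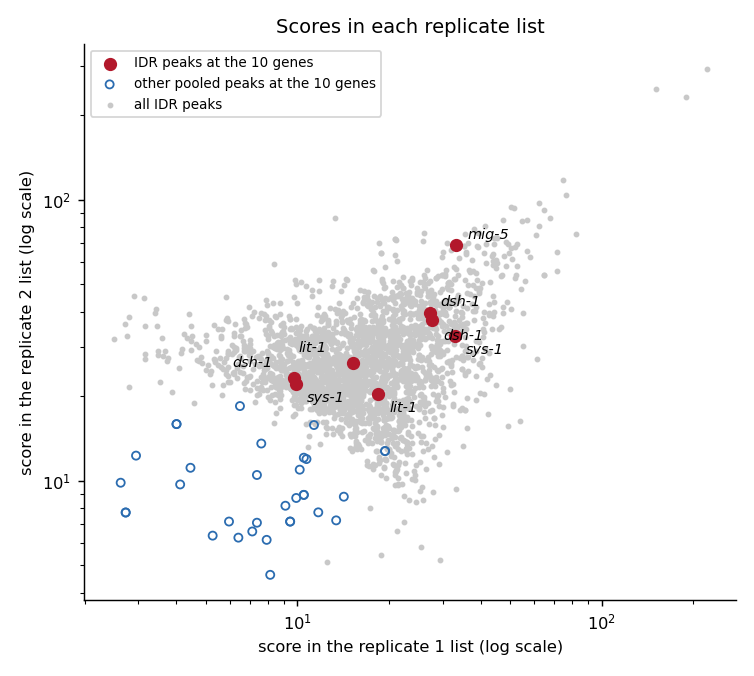
Score in the replicate 2 list (y, log scale) against score in the replicate 1 list (x, log scale) for the 8 IDR peaks at the 10 genes (red, named), the other pooled rows there (blue circles) and all IDR peaks (grey), for rows that overlap a row in both replicate lists. The mig-5 peak is toward the upper end, and the upstream peaks of dsh-1 and sys-1 are low in replicate 1, at 9.71 and 9.93.

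Set beside all genes, 4 of the 10 pathway genes had an IDR peak in their territory, and 16.9% of the 19973 protein-coding genes did. There were 3 genes with 2 or more (dsh-1, sys-1 and lit-1), beside 3.25% of all genes. All 3 have long territories (8.771 kb and more), and no share for 2 or more was taken by length. At sys-1, 1 of the 2 peaks stood in the eif-3.C promoter window. An IDR summit lay in a promoter window of 3 of the 10 (mig-5, dsh-1 and lit-1), beside 8.92% of all genes; for dsh-1 and lit-1 the windows were those of internal starts. Both of these genes have 7 annotated starts, a number reached by 0.816% of all genes, and more starts give more windows. Some of these starts lie close together, so their windows largely overlap. Examples are those from 5225376 to 5225384 at dsh-1 and from 13701991 to 13702141 at lit-1. All 10 had a pooled row, beside 61.7% of all genes, and 9 had a pooled row in a promoter window of their own, hmp-2 being the exception. These counts over 10 genes describe the list, and no test of it was made. The list was chosen with earlier results of these data known.

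The territories of the pathway genes were long, with a median of 10.4 kb beside 4.78 kb for all genes, and longer territories hold more peaks. All genes were put in 4 groups of about equal size by this length. In the longest group (8.771 kb and more), 3 of 7 pathway genes had an IDR peak (dsh-1, sys-1 and lit-1), beside 30.5% of the genes in it. In the next group, apr-1 had none, beside 15.8%. In the group below it, 1 of 2 had a peak (mig-5 and not hmp-2), beside 11.4%, and the shortest group, at 9.66%, held none of the 10 genes. Per kb, the pathway territories held 0.0631 IDR peaks and 0.528 pooled rows, and the genome 0.0256 and 0.285. Over all genes, territories held 0.0289 IDR peaks per kb in the longest group and 0.0547 in the shortest. The density in the lists of other pathway genes was 0.0693 for ligands and their secretion, 0.0562 for receptors and 0.0654 for other intracellular genes. In 2 further lists it was below that of the genome, at 0.0205 for planar polarity genes and 0.0186 for cadherin-catenin partners of HMP-2.

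Gene by gene, lit-1 had 27 pooled rows, and the median of 276 genes with territories within 1.2 times its length was 9, with 3.26% of them reaching 27. For dsh-1 the count was 11, beside a median of 5 among 1445 genes of like length, of which 10.6% reached 11. The counts of bar-1 (7), sys-1 (5) and pop-1 (10) were reached by 17.9%, 19.9% and 29.9% of genes of like length. For mig-5, dsh-2, wrm-1, hmp-2 and apr-1, with 1 or 2 rows each, the share was 48.7% to 65.3%. The share of genes of like length with an IDR peak was 44.9% for lit-1, 33.5% for dsh-1, 20.3% for sys-1 and 10.5% for mig-5. For the pathway genes without an IDR peak, it ran from 12.0% (hmp-2) to 36.8% (pop-1).

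**Figure D4:**
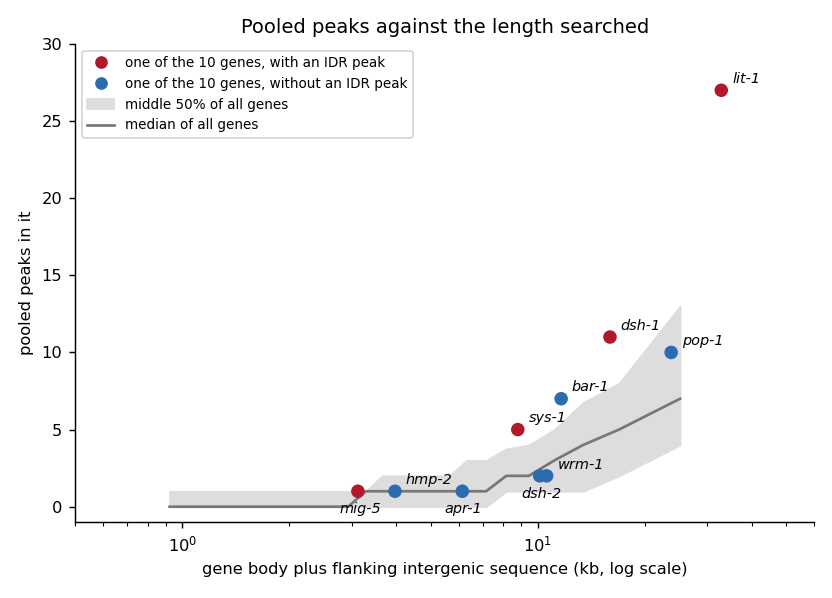
Number of pooled rows (y) against the length of gene body plus flanking intergenic sequence (x, kb, log scale). Points are the 10 pathway genes, red with and blue without an IDR peak, and the grey line and band are the median and middle 50% of all genes in 20 bins of length. The point for lit-1, at 27 rows, is past the end of the band and above it, while dsh-2, wrm-1, hmp-2 and apr-1 lie within it.

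The 8 IDR peaks at the pathway genes had a median pooled score of 53.2, beside 40.97 for all IDR peaks. Of the 8, 6 overlapped rows among the 2570 highest of both replicates, beside 53.3% (1371) of all IDR peaks; the exceptions were the upstream peaks of dsh-1 and sys-1, which missed this in replicate 1. The score in replicate 2 was 0.988 to 2.39 times that in replicate 1, with a median of 1.59, and the median over all IDR peaks was 1.58. Of all 67 pooled rows at the 10 genes, 41 overlapped a row of both replicates, 7 of replicate 1 alone and 19 of replicate 2 alone. By place, 19 of the 67 were in promoter windows of any gene, 11 in exons, 17 in introns and 20 in intergenic sequence; among the 8 IDR peaks the numbers were 5, 0, 1 and 2. The 5 IDR peaks in promoter windows include the one in the eif-3.C window. Upstream flanks held 31 of the 67, gene bodies 34 and downstream flanks 2. No shares over all rows stand beside these splits by overlap, place and side, so the splits are a description only.

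Other genes of the pathway were read from lists in the same way. Over all protein-coding genes, 16.9% had an IDR peak in the territory and 8.92% in a promoter window. The median territory was 17.3 kb for receptors, 6.56 kb for ligands and secretion and 6.02 kb for other intracellular genes. In the group with the longest territories (8.771 kb and more), 30.5% of all genes had an IDR peak in the territory. Of 8 genes of Wnt ligands and their secretion, 3 had an IDR peak in the territory and in a promoter window. These were the Wnt gene cwn-1 with a pooled score of 48.1, the Wnt gene egl-20 with 32.9 and mom-1, the Porcupine enzyme that acylates Wnt proteins, with 30.8. Of 6 receptor genes, 4 had an IDR peak and 2 had it in a promoter window, the Frizzled gene lin-17 with a score of 52.9 and the Ror receptor gene cam-1 with 65.9. Of 7 other intracellular genes, 3 had an IDR peak and 2 had it in a promoter window, the Groucho corepressor gene unc-37 with 86.3 and tap-1 with 33.0. The unc-37 peak scored 29.0 in replicate 1 and 53.6 in replicate 2, and no gene of these 3 lists had a higher promoter peak. The mig-5 peak, at 100.9 and also in the promoter window of cct-1, was above each of these promoter peaks. The mom-1 and tap-1 peaks also stood in the promoter windows of lev-9 and C44H4.4. Outside any promoter window, an intron of mom-1 held an IDR peak of 123.7, and the intergenic sequence beside lin-17 held 1 of 105.6.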

How the data were processed

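ChIP-seq of eGFP-tagged EGL-5 was available as narrowPeak lists for 2 replicates of 1 group. Library fragments were 150 to 350 bp, per the labels. The authors deposited lists on ce11 and ce10, each peak with a score in its signal column; the ce11 lists were used and no coordinate was converted. Per the deposited notes, replicate and pooled lists were made against a control alignment and were the input to IDR. For the aligner, the peak caller and the IDR threshold, names and settings were not given in the sources used here. Replicate names differ between builds: at equal rank, ce11 replicate 1 differed from ce10 replicate 2 by a median of 0.219% and from ce10 replicate 1 by 64.7%. The numbering of the ce11 lists is kept here, and the biological sample behind each number could not be settled.

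Genes and starts came from Ensembl release 115 (WBcel235, the assembly called ce11), 6 nuclear chromosomes, with 29314 protein-coding transcript starts. Annotated worm starts are often trans-splice sites. Replicate rows were matched to a pooled row by an overlap of at least 1 bp, taking the highest score, so adjacent pooled rows can share a replicate row. A summit's place was read in the order promoter window, exon, intron, intergenic sequence. Named genes were the 10 genes, genes sharing a promoter window with or bounding their peaks, and listed Wnt genes with a promoter peak; genes at the IDR peaks nearest to the other pathway genes are named after their values were seen. The genes and lists were chosen with earlier results of these data known. Values are descriptive, with no p-values. Placement and counting were tested on simulated data (Python 3.11.15, numpy 2.4.6, pandas 2.3.3).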

Additional observations from a re-analysis of the deposited data

How the results depend on the processing

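The 4 genes with an IDR peak (mig-5, dsh-1, sys-1 and lit-1) were the same when flanks stopped at a gene of any biotype or at 5000 bp, when the middle of a peak replaced its summit, when peaks were assigned to the nearest start (an alternative chosen after seeing the data), and with the 1285 highest-scoring IDR peaks or the 1371 peaks supported in each replicate. With the 1285 or the 1371 peaks, sys-1 stayed only through its peak in the eif-3.C promoter window. Its upstream peak was in neither set. The share of all genes was 13.2% with flanks to a gene of any biotype, 15.5% with flanks to 5000 bp and 16.9% with the middle of a peak. In gene bodies only, 2 of the 10 genes (dsh-1 and lit-1), 4 IDR peaks and 34 pooled rows were counted, beside 3.25% of all genes. Those 1285 peaks left 5 IDR peaks, beside 9.69% of all genes by territory and 5.15% by promoter; the supported peaks gave 9.90% and 5.14%. With a promoter window of 2000 bp, 5 genes were counted (hmp-2 and sys-1 added), beside 11.7% of all genes, and with the outermost starts only, 1 (mig-5), beside 8.24%. Without either replicate, taking the 2570 highest rows of the other list, 4 to 5 genes, 9 such rows and 3 to 4 promoters were counted. The gene bar-1 and the sys-1 promoter were added without replicate 2. The shares of all genes were 16.8% by territory and 9.05% by promoter without replicate 1, and 16.2% and 7.81% without replicate 2. The highest pop-1 score was 11.3 with flanks to a gene of any biotype, below all but hmp-2. With these flanks the highest bar-1 score was 21.7, below the 22.7 of wrm-1. The cause of these shifts, beyond fewer bases or peaks counted, was not tested. No paired analysis was possible because there is 1 group. Read depth is unknown, so no interval can be given for a score, and 2 replicates give no reliable spread.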

Other observations

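Genes that work beside the pathway were read in the same way. Of 3 cadherin-catenin partners of HMP-2 in adherens junctions, all 3 had 1 IDR peak in the territory and none had it in a promoter window; they are named here after their values were seen. Over all genes the shares were 16.9% for the territory and 8.92% for the promoter window. In the group with the longest territories (8.771 kb and more), the share for the territory was 30.5%. The 3 territories held 0.0186 IDR peaks per kb, beside 0.0256 in the genome. The pooled scores were 69.0 at hmr-1, the classical cadherin gene, 46.8 at hmp-1, the alpha-catenin gene, and 33.0 at jac-1, a p120-type catenin gene. Their territories were long, at 72.1, 16.9 and 72.6 kb. Among genes with territories near the 32.8 kb of lit-1, 44.9% had an IDR peak. No share was taken near the lengths of hmr-1 and jac-1. At hmp-2 itself there was no IDR peak, in a territory of 3.97 kb. Of 3 planar polarity genes, vang-1, the Van Gogh homologue, had an IDR peak, in its promoter window, with scores of 28.4 in replicate 1, 15.8 in replicate 2 and 43.6 in the pooled list.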
